A study of Mus musculus with 4 samples.

Results

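The genes described here are 40 genes of glutathione, thioredoxin and peroxide defence. They were chosen by name, as the genes of NRF2 control, glutathione synthesis, the thioredoxin and peroxiredoxin systems, peroxidases and superoxide dismutases, and 40 of the 25239 genes in the expression table carried 1 of these names. Expression was measured by RNA-seq in 4 libraries of cultured granulosa cells (GCs) of the ovarian follicle, which the paper names as mural GCs. The cells came from wild-type C57BL/6 female mice at postnatal day 24. The methods of the paper describe mural GCs for culture as taken from mice given the gonadotropin PMSG. The control group and the group treated with HDACi 4b, an inhibitor of the histone deacetylases HDAC1 and HDAC3, had 2 libraries each. All 4 libraries thus shared strain, genotype, age and culture, and they carried no transgene by title or design. The samples also carry notes on treatment and extraction that describe tamoxifen given to mice and frozen ovaries, and the titles and the design, which speak of cultured wild-type cells, were followed instead. The purpose of the comparison was to find what the inhibitor changes in the transcriptome of GCs.

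Hydrogen peroxide and lipid peroxides are by-products of respiration and of steroid synthesis, for which GCs are a main site in the ovary. Glutathione and thioredoxin are the small thiol carriers that deliver electrons from NADPH to the peroxidases that remove them. NRF2, encoded by Nfe2l2, is the transcription factor that switches on many genes of both systems. KEAP1 holds NRF2 in the cytoplasm for degradation until oxidants or electrophiles modify its thiols, and BACH1 competes with NRF2 for the same DNA motif together with small MAF proteins.

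Values are FPKM, read counts scaled to gene length and to the mapped reads of the library, so that genes can be compared per length. The read totals behind them, recovered from the steps of the values, were 16438728 and 17665107 in controls and 16215581 and 15951875 in treated libraries, so that 1 read on a gene of 2 kb amounts to 0.0283 to 0.0313 FPKM. Log2 values correlated across genes at 0.989 within controls, 0.993 within treated libraries, and 0.883 to 0.896 between the groups. GC markers were present in every library, with the hormone subunit gene Inha at 438 to 1260 FPKM and Foxl2, which maintains ovarian cell fate, at 24.0 to 74.2 FPKM. The summed level of the 10 GC markers was 1702 and 1652 FPKM in controls and 697 and 855 FPKM in treated libraries, with 3 markers called higher and 5 lower. The 7 markers of theca and stroma summed to 195 and 312 FPKM in controls and 35.8 and 62.5 FPKM in treated libraries, and the 4 of them that were tested were all lower. The 5 macrophage and leukocyte markers summed to 66.7 and 103.9 FPKM in controls and 56.2 and 47.7 FPKM in treated libraries. Of the 2 that were tested, Cd68 was called higher and Lyz2 lower. Adgre1, Csf1r and Ptprc, not tested, were lower in both treated libraries than in both controls. Endothelial, red cell, oocyte and surface epithelium markers each summed to 0.141 to 5.96 FPKM, and no listed marker in the table was at 0 in all 4 libraries. The part of these markers in the results was not tested, and in such bulk samples fewer cells of a type and less RNA per cell cannot be told apart.

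More defence genes were higher than lower in treated GCs, while more of all tested genes were lower than higher. Of 39 members that reached a mean of 1 FPKM, 21 (53.8%) were called higher in limma at an adjusted p below 0.05, against 22.4% of the 12054 genes tested. Lower calls numbered 9 (23.1%), against 38.1% of tested genes, and 9 members were not called. The remaining member, Ggt1, lay under the filter. With a log2 difference of at least 1 as well, 12 members (30.8%) were higher against 7.54% of tested genes, and 2 (5.13%) were lower against 6.70%. The treated libraries lay above both controls for 22 members and below both for 10, so that 82.1% did not overlap, close to the 83.1% of all tested genes. The median difference of the members was 0.39 on the log2(FPKM + 1) scale, and that of all tested genes was -0.15. The members were chosen with earlier results of these data known, so these shares describe the list and are no test of it.

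The counts of higher members moved little with the settings, and those of lower members moved more. Median-ratio scaling of the libraries shifted the median of all tested genes from -0.15 to -0.01, and with it 22 members were higher and 4 lower. Over all tested genes that scaling gave 3419 higher and 3397 lower calls, with 50.2% of calls higher in place of 37.0%. Without HDACi 4b replicate 1, 19 members were higher and 5 lower, and calls over all genes fell from 7297 to 4571. With 2 libraries a group the smallest p of an exact permutation test is 0.333, so each call rests on a spread that limma shares across genes. The labels do not say whether replicates were separate cultures, and the p-values measure only the spread between these libraries.

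**Figure D1:**
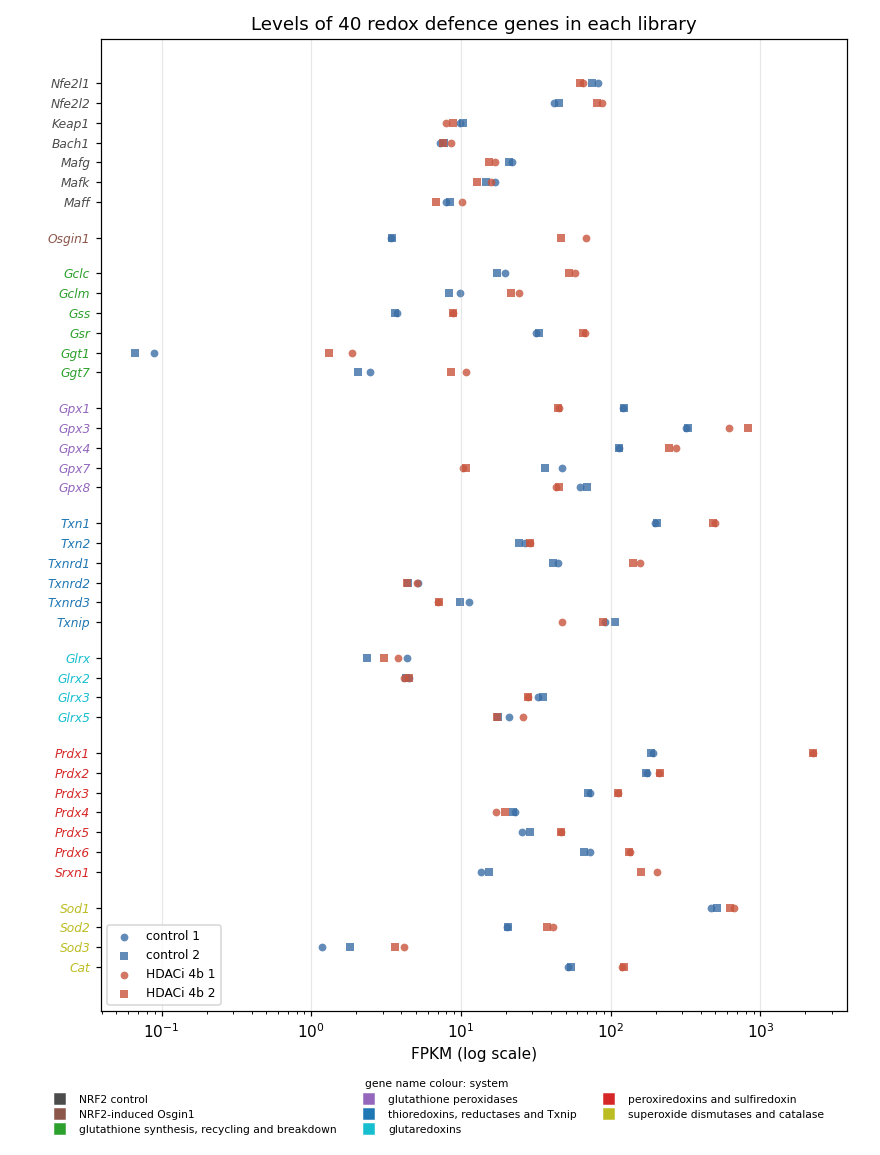
FPKM of the 40 genes in each of the 4 libraries on a log axis, with blue points for controls, red points for HDACi 4b, circles for replicate 1 and squares for replicate 2. Gene names are coloured by system. Prdx1 lies at 2257 and 2242 FPKM in treated libraries and at 192 and 185 FPKM in controls, and Ggt1 is under 0.1 FPKM in both controls.

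Among the 7 genes of NRF2 control, only the NRF2 gene was called higher, while 3 were lower and 3 not called. Of all tested genes, 22.4% were higher and 38.1% lower. The 3 lower calls, of Nfe2l1, Keap1 and Mafg, were all lost under median-ratio scaling. Nfe2l2 was at 41.6 and 44.95 FPKM in controls and 87.7 and 81.3 FPKM in treated libraries. It rose 1.95-fold, with a log2 difference of 0.95 ± 0.075 (SE) and an adjusted p of 0.000501 in limma. Both treated libraries lay well above both controls. Nfe2l1, which encodes the related factor NRF1 and drives proteasome genes, was at 82.7 and 74.9 FPKM in controls and 64.9 and 62.2 FPKM in treated libraries. Its difference of -0.30 ± 0.076 was called lower (adjusted p = 0.0187), and the call was lost under median-ratio scaling (adjusted p = 0.153) and with 1 treated library left out (adjusted p = 0.0827 without replicate 1 and 0.119 without replicate 2, range over all alternatives 0.00934 to 0.153).

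The 5 other regulators lay between 6.78 and 22.0 FPKM in every library. The KEAP1 gene was at 9.90 and 10.3 FPKM in controls and 7.90 and 8.80 FPKM in treated libraries. Its difference of -0.25 ± 0.081 was only just called lower (adjusted p = 0.0433) and was not called in 7 alternatives, with adjusted p up to 0.266 under median-ratio scaling. Of the small MAF genes, which encode the DNA-binding partners of NRF2 and BACH1, Mafg was lower by a difference of -0.38 ± 0.076 (adjusted p = 0.00840) and lost that call under median-ratio scaling (adjusted p = 0.0512) and without HDACi 4b replicate 2 (adjusted p = 0.0610, the highest over its alternatives). Mafg shares 124 exon bases with Sirt7 on the same strand. Keap1 shares 510 exon bases with the antisense gene Gm16754, which had means of 0.258 and 0.286 FPKM, and Mafk shares 169 with Tmem184a on the opposite strand. Mafk, Maff and Bach1 were not called, at -0.13, 0.02 and 0.10, and their groups overlapped. The ratio of KEAP1 to NRF2 transcript, in FPKM, was 0.238 and 0.229 in controls and 0.0900 and 0.108 in treated libraries, and that of Bach1 to Nfe2l2 was 0.174 and 0.170 in controls and 0.0977 and 0.0936 in treated libraries. Both ratios were lower in each treated library than in each control. Their shared denominator Nfe2l2 rose 1.95-fold and Bach1 was not called, so the ratios largely restate the rise of Nfe2l2.

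Osgin1, an oxidative stress gene known in human cells as an NRF2 target and growth inhibitor, showed the greatest log2 difference of all members. It was at 3.39 and 3.47 FPKM in controls and 68.9 and 46.6 FPKM in treated libraries, and ranked 23 from the top among 12054 differences. The rise was 16.8-fold, with a log2 difference of 3.70 ± 0.196 and an adjusted p of 0.000369. The treated libraries differed from each other by more than the whole control level, yet both were far above it. The 313 control and 4975 treated reads gave a ratio per library total of 16.9, with a 95% exact interval of 15.03 to 18.95 that covers counting error only.

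Promoters were read for the motif through which NRF2 and small MAF proteins bind, the antioxidant response motif TGACNNNGC, on both strands. Windows of 250 bases before to 50 after the gene start came from RefSeq on GRCm38.p6, a later build than the mm8 of the submitters' processing notes. They were matched by symbol for 36 of the 40 members, with 54 windows, and Gclc, Gsr, Prdx6 and Sod3 had no entry. The motif was in 10 of the 36 members (27.8%) and in 14.0% of 27025 genes, or 12.4% of 32851 windows. Members had more windows per gene than all genes had, so shares per gene are not on equal terms. It was held by 6 of 17 members called higher, namely Nfe2l2, Gclm, Txnrd1, Prdx1, Srxn1 and Sod1. Among 9 members called lower it was in Mafg, and among 9 not called in Mafk and Maff. Ggt1, which was not tested, held it in 3 of its windows. The AP-1 motif TGACTCA, which can overlap it and was added after the values were seen, was in 4 of 36 members (11.1%) and in 5.95% of all genes. Those 4 were Osgin1, Prdx1, Srxn1 and Glrx, and the first 3 have the greatest log2 differences of all members. Because the motif was added with these values known, this order is no test of it. The 250 bases upstream are printed for these 3 genes and for Txnrd1, the reductase with the greatest rise, with motif matches in capitals on either strand, read 5′ to 3′ along the gene.
Osgin1, chr8:119436897-119437146, plus strand: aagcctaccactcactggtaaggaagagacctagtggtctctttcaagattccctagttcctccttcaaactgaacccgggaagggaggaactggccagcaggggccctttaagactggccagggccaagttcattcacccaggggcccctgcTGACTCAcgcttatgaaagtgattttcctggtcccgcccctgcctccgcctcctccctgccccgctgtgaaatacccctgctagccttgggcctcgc
Prdx1, chr4:116685349-116685598, plus strand: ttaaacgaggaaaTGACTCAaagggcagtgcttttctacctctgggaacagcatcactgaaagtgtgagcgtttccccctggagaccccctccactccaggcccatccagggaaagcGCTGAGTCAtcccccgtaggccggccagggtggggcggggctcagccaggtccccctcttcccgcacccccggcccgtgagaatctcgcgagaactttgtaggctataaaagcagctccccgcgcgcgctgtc
Srxn1, chr2:152105274-152105523, plus strand: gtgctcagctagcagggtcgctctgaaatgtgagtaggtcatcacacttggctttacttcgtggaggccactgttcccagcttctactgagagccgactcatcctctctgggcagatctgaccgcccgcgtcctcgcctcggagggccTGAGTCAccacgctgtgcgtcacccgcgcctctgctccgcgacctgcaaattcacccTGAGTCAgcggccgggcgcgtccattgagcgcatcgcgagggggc
Txnrd1, chr10:82858956-82859205, plus strand: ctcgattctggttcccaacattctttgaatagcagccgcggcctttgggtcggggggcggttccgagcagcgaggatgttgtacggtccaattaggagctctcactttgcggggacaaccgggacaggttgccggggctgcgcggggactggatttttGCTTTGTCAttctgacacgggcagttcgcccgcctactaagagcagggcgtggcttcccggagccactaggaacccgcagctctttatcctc

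In Osgin1 the capitals mark 1 AP-1 motif that starts at -97, counted from the gene start. In Prdx1 they mark an AP-1 motif at -237 and an antioxidant response motif at -133 that reads TGACTCAGC on the opposite strand and so contains a second AP-1 motif at -131. Srxn1 has AP-1 motifs at -102 and -45, while its antioxidant response motif starts at 28 bases after the gene start, outside the printed stretch. Txnrd1 has 1 antioxidant response motif at -92. Outside these 4 genes, the antioxidant response motif starts at -240 in Nfe2l2, -134 in Gclm and -56 in Sod1, which were called higher. It starts at -222 in Mafg, called lower, and at -13 in Mafk and -112 in Maff, which were not called. In windows of Ggt1, which was not tested, it starts at 41, -36 and -83. A match describes these letters in the window and says nothing of binding in GCs.

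**Figure D2:**
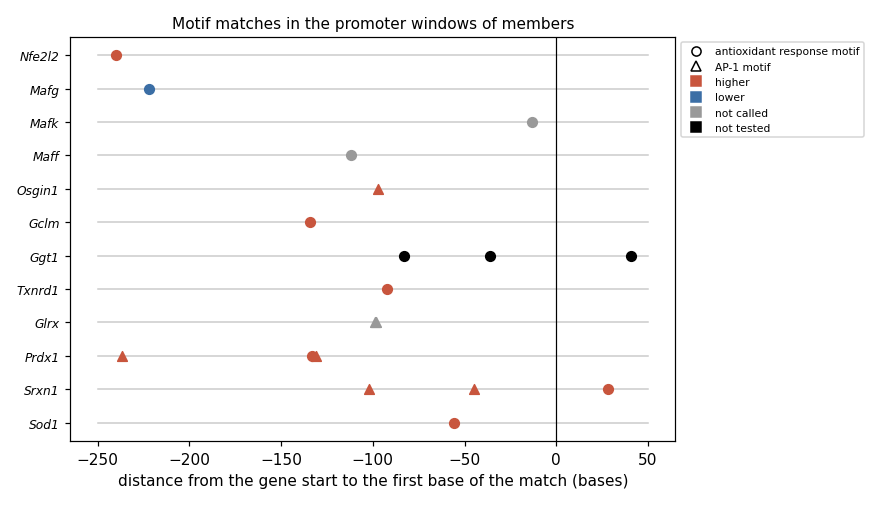
Position of each motif match in the promoter windows of the members that hold one, in bases from the gene start, with circles for the antioxidant response motif and triangles for the AP-1 motif. Red genes were called higher, blue lower, grey not called and black not tested. Of the 12 genes drawn, Osgin1 and Glrx hold only the AP-1 motif, and Srxn1 and Prdx1 hold both.

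The genes that make and recycle glutathione rose together. All 5 tested genes of this group were called higher, against 22.4% of all tested genes, with a median log2 difference of 1.26. Gclc and Gclm, the catalytic and modifier subunits of glutamate-cysteine ligase, carry out the rate-limiting step of the synthesis. Gclc was at 19.7 and 17.4 FPKM in controls and 57.8 and 53.0 FPKM in treated libraries, a 2.99-fold rise with a log2 difference of 1.53 ± 0.087 (adjusted p = 0.000218 in limma). Gclm was at 9.82 and 8.31 FPKM in controls and 24.4 and 21.8 FPKM in treated libraries, a 2.54-fold rise with a log2 difference of 1.26 ± 0.104 (adjusted p = 0.000536). Both subunits rose by similar folds, and the ratio of Gclc to Gclm in FPKM was 2.00 and 2.10 in controls and 2.37 and 2.44 in treated libraries.

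Glutathione synthetase, Gss, adds the last amino acid. It was at 3.76 and 3.64 FPKM in controls and 8.85 and 8.90 FPKM in treated libraries, with a log2 difference of 1.07 ± 0.074 (adjusted p = 0.000342). Glutathione reductase, Gsr, which returns oxidized glutathione to its thiol form, was at 31.9 and 33.5 FPKM in controls and 67.0 and 65.7 FPKM in treated libraries, a 2.03-fold rise (adjusted p = 0.000277). Libraries of a group lay close together for both genes. Gsr differed by just under 1 on the log2(FPKM + 1) scale, the member nearest to that limit.

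The gamma-glutamyl transferase gene Ggt7, of the family whose classical members break down glutathione outside the cell, was at 2.48 and 2.06 FPKM in controls and 10.8 and 8.55 FPKM in treated libraries. It rose 4.25-fold, with a log2 difference of 1.70 ± 0.132 (adjusted p = 0.000497). Gss and Ggt7 share 395 and 197 exon bases with Acss2 on the opposite strand (6.68% and 6.04% of their exons), and Acss2 itself was at a mean of 2.34 FPKM in controls and 8.68 FPKM with HDACi 4b. The sources used here do not give whether the counting used strand, and the part of these shared bases was not tested. Ggt1, the classical cell surface enzyme, had 5 and 4 reads in controls and 103 and 72 reads in treated libraries. This is 0.0892 and 0.0664 FPKM in controls and 1.86 and 1.32 FPKM in treated libraries, so Ggt1 went from a few reads to a low but clear level. Its read ratio per library total was 20.6, with a 95% exact interval of 10.6 to 45.8 for counting error only, and with no filter on low values it was called higher (adjusted p = 0.00718).

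The glutathione peroxidases, which reduce peroxides with glutathione, were split. Of 5 tested genes 2 were higher and 3 lower, with none uncalled and a median of -0.57. All tested genes had 22.4% higher and 38.1% lower. Gpx1, the cytosolic selenoenzyme for hydrogen peroxide, was at 122 and 123 FPKM in controls and 45.2 and 44.6 FPKM in treated libraries. It was 2.73-fold lower, with a log2 difference of -1.43 ± 0.060 (adjusted p = 0.000117 in limma). Gpx4, the selenoenzyme that reduces lipid hydroperoxides in membranes and protects cells from ferroptosis, was at 113.3 and 113.1 FPKM in controls and 274 and 245 FPKM in treated libraries. It rose 2.29-fold, with a log2 difference of 1.19 ± 0.079 (adjusted p = 0.000315). The transcripts of the 2 genes were thus at nearly equal levels in controls, with a ratio of Gpx4 to Gpx1 of 0.931 and 0.916, and stood at 6.08 and 5.50 in treated libraries.

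Gpx3, the secreted plasma peroxidase, was the most abundant of the 5. It was at 320 and 330.0 FPKM in controls and 621 and 831 FPKM in treated libraries, a 2.23-fold rise with a log2 difference of 1.14 ± 0.148 (adjusted p = 0.00263). The treated libraries differed from each other more than the controls did, and both exceeded both controls. Gpx7 and Gpx8 reside in the endoplasmic reticulum, lack selenocysteine and pass oxidation on to protein disulfide isomerase. Gpx7 was at 47.6 and 36.5 FPKM in controls and 10.3 and 10.9 FPKM in treated libraries, 3.98-fold lower with a log2 difference of -1.88 ± 0.136 (adjusted p = 0.000503), the greatest fall of all members. Gpx8 was at 62.8 and 69.9 FPKM in controls and 42.9 and 45.5 FPKM in treated libraries, with a difference of -0.57 ± 0.080 (adjusted p = 0.00258). The theca and stroma markers were lower in the same treated libraries, and their part in these falls was not tested.

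**Figure D3:**
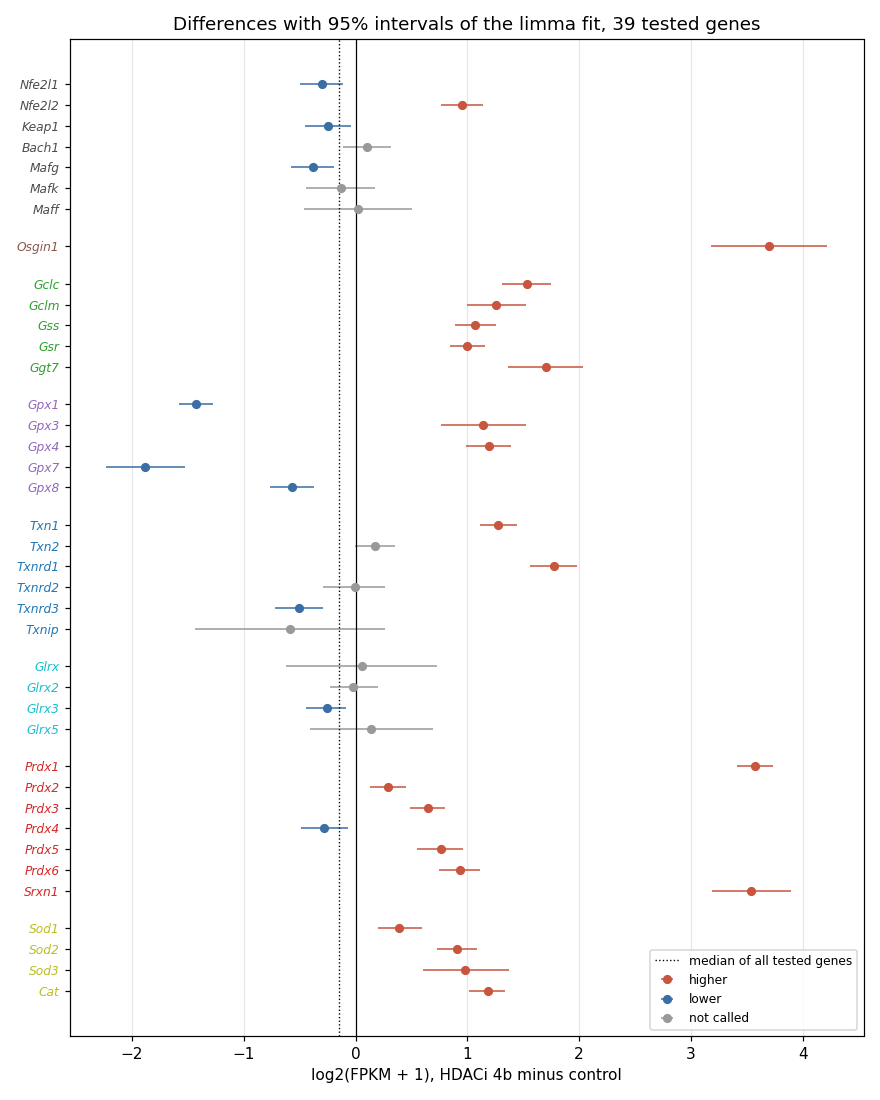
Difference in log2(FPKM + 1), HDACi 4b minus control, with its 95% interval from limma for the 39 tested members, grouped by system, in red for higher, blue for lower and grey for not called. The dotted line is the median of all tested genes at -0.15. Prdx1, Srxn1 and Osgin1 lie above 3.5, Gpx7 lies at -1.88, and under median-ratio scaling the blue calls of Nfe2l1, Keap1, Mafg, Glrx3 and Prdx4 were lost.

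In the thioredoxin system, the cytosolic thioredoxin and its reductase rose and the mitochondrial pair was not called. Txn1, the cytosolic thioredoxin, was at 198 and 203 FPKM in controls and 494 and 479 FPKM in treated libraries. It rose 2.43-fold, with a log2 difference of 1.27 ± 0.065 (adjusted p = 0.000175 in limma). Txnrd1, the selenoenzyme that reduces it with NADPH, was at 44.4 and 41.2 FPKM in controls and 157 and 140.2 FPKM in treated libraries. It rose 3.47-fold, with a log2 difference of 1.77 ± 0.083 (adjusted p = 0.000152), and its promoter carries the antioxidant response motif at -92. The ratio of Txnrd1 to Txn1 was 0.224 and 0.203 in controls and 0.317 and 0.293 in treated libraries.

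The mitochondrial thioredoxin Txn2 was at 27.0 and 24.5 FPKM in controls and 29.0 and 29.1 FPKM in treated libraries, a difference of 0.17 ± 0.073 that was not called (adjusted p = 0.0943) and that was called higher under median-ratio scaling (adjusted p = 0.0148) and without control replicate 1 (adjusted p = 0.0445, range over all alternatives 0.0148 to 0.267). Its reductase Txnrd2 was at 5.17 and 4.43 FPKM in controls and 5.09 and 4.39 FPKM in treated libraries, with a 95% interval of the log2 difference from -0.29 to 0.26. The third reductase, Txnrd3, which acts on thioredoxin and glutathione and is best known from testis, was lower by a difference of -0.51 ± 0.086 (adjusted p = 0.00500).

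Txnip, which binds reduced thioredoxin and blocks it, had the greatest SE of the 39 tested members. It was at 91.5 and 106 FPKM in controls and 47.3 and 89.3 FPKM in treated libraries. Its difference of -0.59 ± 0.318 was not called (adjusted p = 0.173), with a 95% interval from -1.44 to 0.26. The value turned on which treated library was kept. Without HDACi 4b replicate 2 the difference was -1.04 (adjusted p = 0.0115), and without HDACi 4b replicate 1 it was -0.14 (adjusted p = 0.433, range over all alternatives 0.0115 to 0.433). Txnip shares 606 exon bases, 19.4% of its exons, with the antisense gene Gm15441, which was at a mean of 0.157 FPKM in controls and 0.241 FPKM with HDACi 4b. The ratio of Txnip to Txn1 was 0.462 and 0.522 in controls and 0.0958 and 0.186 in treated libraries, lower in both treated libraries than in both controls. Its denominator Txn1 rose 2.43-fold, while Txnip itself was not called.

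The glutaredoxins, which use glutathione to reduce protein thiols or to carry iron-sulfur clusters, showed the least movement. Of 4 genes 1 was lower and 3 were not called, with a median of 0.02, and 38.1% of all tested genes were lower. Glrx3, a cytosolic carrier of iron-sulfur clusters, was at 32.8 and 35.3 FPKM in controls and 28.2 and 28.1 FPKM in treated libraries. Its difference of -0.26 ± 0.068 was called lower (adjusted p = 0.0202), and the call was lost under median-ratio scaling (adjusted p = 0.218), with 1 treated library left out (adjusted p = 0.104 without replicate 1 and 0.106 without replicate 2) and without control replicate 2 (adjusted p = 0.0582, range over all alternatives 0.0114 to 0.218). Glrx5, its mitochondrial counterpart in cluster transfer, was at 20.9 and 17.7 FPKM in controls and 25.9 and 17.4 FPKM in treated libraries, and the groups overlapped. Glrx, the cytosolic enzyme, and Glrx2, the mitochondrial one, lay between 2.35 and 4.51 FPKM in every library. Neither was called, at 0.06 and -0.02, and their groups overlapped.

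The peroxiredoxins, abundant thiol peroxidases that are mostly reduced by thioredoxin, held the most abundant rise. Of 6 genes 5 were higher and 1 lower, against 22.4% higher and 38.1% lower of all tested genes. Sulfiredoxin, which repairs their over-oxidized form, rose as well. Prdx1, the main cytosolic member, was at 192 and 185 FPKM in controls and 2257 and 2242 FPKM in treated libraries. It rose 11.9-fold, with a log2 difference of 3.57 ± 0.064 (adjusted p = 4.57e-05 in limma). The libraries of each group agree closely, and by mean FPKM Prdx1 went from rank 217 of all genes in control to rank 11 in treated cells. Its share of library reads was 0.0584% and 0.0564% in controls and 0.687% and 0.682% in treated libraries. Among the 6 peroxiredoxins, Prdx1 made up 34.21% and 34.04% of summed FPKM in controls and 81.2% and 81.0% in treated libraries.

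Srxn1, the sulfiredoxin gene, was at 13.7 and 15.4 FPKM in controls and 203 and 159 FPKM in treated libraries. It rose 12.4-fold, with a log2 difference of 3.54 ± 0.137 (adjusted p = 0.000136). Sulfiredoxin repairs peroxiredoxins of the kind encoded by Prdx1, Prdx2, Prdx3 and Prdx4. The ratio of Srxn1 to their summed FPKM was 0.0296 and 0.0343 in controls and 0.0783 and 0.0613 in treated libraries. The Srxn1 transcript thus rose by a greater fold than their summed transcripts, and protein was not measured. Srxn1 and Prdx1 both carry AP-1 and antioxidant response motifs in their windows.

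The other peroxiredoxins moved far less. Prdx2, the second cytosolic enzyme and almost as abundant as Prdx1 in controls, was at 176 and 171 FPKM in controls and 211 and 214 FPKM in treated libraries. Its difference of 0.29 ± 0.063 was called higher (adjusted p = 0.0114), and the call was lost with 1 treated library left out (adjusted p = 0.0808 without replicate 1 and 0.0871 without replicate 2, range over all alternatives 0.00379 to 0.0871). Prdx2 shares 173 and 177 exon bases with Junb and Rnaseh2a on the opposite strand, both with higher mean FPKM in treated cells (54.4 to 111 for Junb and 30.3 to 64.4 for Rnaseh2a). Prdx3, in mitochondria, Prdx5, in mitochondria, peroxisomes and cytosol, and Prdx6, which uses glutathione, rose 1.57-fold, 1.71-fold and 1.92-fold, with log2 differences of 0.65, 0.76 and 0.93. Prdx5 shares 409 exon bases, 19.1% of its exons, with Trmt112 on the opposite strand, whose mean was 35.5 FPKM in controls and 21.95 FPKM with HDACi 4b. Prdx4, the enzyme of the endoplasmic reticulum, was at 22.9 and 22.1 FPKM in controls and 17.2 and 19.6 FPKM in treated libraries. Its difference of -0.28 ± 0.084 was called lower (adjusted p = 0.0327) but not in 5 alternatives, with adjusted p up to 0.191 under median-ratio scaling and 0.168 without HDACi 4b replicate 1.

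The superoxide dismutases, which turn superoxide into hydrogen peroxide, and catalase, which splits peroxide in peroxisomes, were all higher. Among all tested genes 22.4% were higher. Sod1, the copper-zinc enzyme of the cytosol, was the most abundant member in controls, at 471 and 511 FPKM, and stood at 668 and 623 FPKM in treated libraries. Its rise was small, 1.31-fold with a log2 difference of 0.39 ± 0.078 (adjusted p = 0.00870), and the call was lost without HDACi 4b replicate 1 (adjusted p = 0.0841, range over all alternatives 0.00524 to 0.0841). Catalase, Cat, was at 51.9 and 54.6 FPKM in controls and 119.6 and 123 FPKM in treated libraries, a 2.28-fold rise with a log2 difference of 1.18 ± 0.065 (adjusted p = 0.000200 in limma). The manganese enzyme of mitochondria, Sod2, rose 1.93-fold, from 20.4 and 20.6 FPKM to 41.2 and 37.7 FPKM, and the ratio of Sod2 to Sod1 went from 0.0432 and 0.0403 to 0.0616 and 0.0605. The secreted enzyme Sod3 was low, at 1.19 and 1.80 FPKM in controls and 4.19 and 3.61 FPKM in treated libraries, and rose 2.61-fold (adjusted p = 0.00372).

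**Figure D4:**
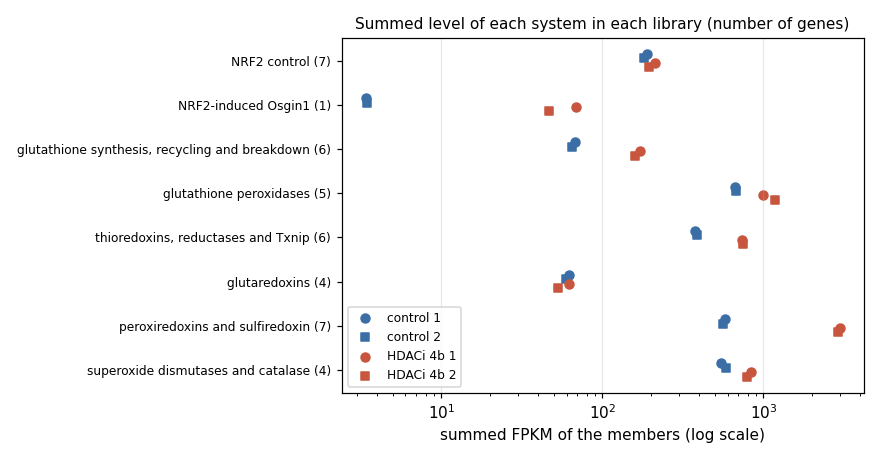
Summed FPKM of the members of each system in each library on a log axis, with the number of genes in brackets, blue for controls and red for HDACi 4b, circles for replicate 1 and squares for replicate 2. The peroxiredoxins and sulfiredoxin stand at 2982 and 2926 FPKM in treated libraries and at 575 and 560.4 FPKM in controls, and the glutaredoxins lie within 53.1 to 62.6 FPKM in all 4 libraries.

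Summed over each system, the peroxiredoxins with sulfiredoxin stood 5.21-fold higher in mean FPKM in treated cells, glutathione synthesis and breakdown 2.49-fold, the thioredoxins 1.94-fold, the glutathione peroxidases 1.62-fold and the dismutases with catalase 1.43-fold. These sums follow their most abundant genes. Without Prdx1, the 5 other peroxiredoxins summed to 369 and 359.5 FPKM in controls and 522 and 526 FPKM in treated libraries, 1.44-fold higher, so the rise of that system was mostly Prdx1. The glutaredoxins (0.943 of the control sum) and the NRF2 control genes (1.10-fold) were near their control sums. By place in the cell, of the 6 members listed as mitochondrial (Txn2, Txnrd2, Glrx2, Glrx5, Prdx3 and Sod2) 2 were higher and 4 not called, with a median of 0.15. All 3 of the endoplasmic reticulum were lower, with a median of -0.57, but the call of Prdx4 did not hold in every alternative. Of all tested genes, 22.4% were higher and 38.1% lower, with a median of -0.15. The 2 secreted members, Gpx3 and Sod3, were both higher, with a median of 1.06. The other 28 tested members, with Prdx5 counted here although its product is found in mitochondria as well as elsewhere, had 17 higher, 6 lower and a median of 0.85. No test compared these places or systems with each other.

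Redox genes outside the 40 had shares of calls closer to those of all tested genes. Of 39 such genes listed as neighbours in the pathway, 37 were in the table and 35 were tested. Of these, 10 were higher (28.6%, against 22.4% of all tested genes) and 13 lower (37.1%, against 38.1%). Their median was -0.13, near the -0.15 of all tested genes. The 7 that rose by at least 1 on the log2 scale (20%, against 7.54%) were Nqo1, Hmox1, Slc7a11, Abcc1, Nfe2l3, Sephs2 and Sqstm1. Falls of that size numbered 2 (5.71%, against 6.7%). Nqo1, the quinone reductase used as the standard NRF2 target, was at 1.10 and 0.948 FPKM in controls and 42.1 and 38.9 FPKM in treated libraries, a 39.6-fold rise with a log2 difference of 4.36 ± 0.083 (adjusted p = 4.57e-05). Heme oxygenase, Hmox1, which NRF2 induces and BACH1 represses, was at 41.3 and 37.3 FPKM in controls and 202 and 210.4 FPKM in treated libraries. For both genes the treated libraries lay far above the controls. Slc7a11, the cystine importer that feeds glutathione synthesis, was at 0.297 and 0.244 FPKM in controls and 4.79 and 4.29 FPKM in treated libraries, 16.8-fold higher.

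Abcc1, which exports glutathione conjugates, rose by a log2 difference of 1.63, Nfe2l3, a relative of NRF2, by 1.27 and Sqstm1, the autophagy receptor that binds KEAP1, by 1.11. On the falling side, Chac1, which cleaves glutathione inside the cell, was at 12.6 and 7.44 FPKM in controls and 1.21 and 0.996 FPKM in treated libraries, 9.12-fold lower with a log2 difference of -2.35 ± 0.248 (adjusted p = 0.00192). Arrdc3, an arrestin related to Txnip, was lower by a difference of -1.88 ± 0.183 (adjusted p = 0.00139), while Arrdc4 of the same family was not called, at 0.05. Cul3 and Rbx1, the ubiquitin ligase parts that act with KEAP1 on NRF2, were lower by differences of -0.33 ± 0.070 and -0.28 ± 0.071 (adjusted p = 0.0107 and 0.0206). Neither call held in every alternative.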

How the data were processed

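Sample titles gave the groups and the replicate numbers. Library preparation used an Illumina TruSeq RNA kit, and the processing notes of the submitters name Bowtie 0.12.2 and the build mm8. Details of counter, annotation and strand use are not given in the sources used. In a single table the authors deposited FPKM, a unit that it does not name and that was settled from the values. Of 23877 genes matched to 1 symbol with a union exon length of GENCODE M21, 21606 (90.5%) came out as whole reads within 0.001 in each library, 36 members among them, which gave the read totals.

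The 12054 genes whose mean reached 1 FPKM entered a two-sided limma test (version 3.58.1, R 4.3.3) of log2(FPKM + 1), using a trended, robust empirical Bayes step and no covariate. P-values were adjusted over all of them by Benjamini-Hochberg, with a threshold of 0.05. A fold is the ratio of 2 mean FPKM values, and log2 differences understate the change of low genes. Members and lists were chosen with earlier results of these data known. Members with full values were those called with an absolute log2 difference of at least 1 and groups apart, and the 2 most abundant of each system. Others were added after their values were seen. Read counts of the 2 controls gave a chi-square per gene of 14.1, and those of the 2 treated libraries 5.34, above the value of 1 for sampling noise, so neither pair was 1 library deposited in duplicate. This does not show what kind of replicates they were. Read ratios have exact conditional binomial intervals at 95%. Exon overlaps are from GENCODE M21, and promoters from RefSeq. Alternatives were a pseudocount of 0.1, no filter, a replicate block, leaving out each library, median-ratio scaling, a fit without trend, and limma-voom applied to the recovered reads (10 or more in 2 libraries). Protein sequences were not analysed here. Figures were drawn with matplotlib 3.10.9.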

Additional observations from a re-analysis of the deposited data

How the results depend on the processing

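Of the 30 members called, 23 kept direction and call in every alternative run, the 14 with a log2 difference of at least 1 among them, and the other 7 were Nfe2l1, Keap1, Mafg, Glrx3, Prdx2, Prdx4 and Sod1. Members called lower numbered 4 in place of 9 under median-ratio scaling and 5 to 7 when 1 library was left out, with 4571 to 6717 calls over all genes, and the cause was not tested. Calls higher numbered 19 to 22 in all alternatives. With a replicate block 21 members were higher and 9 lower, as without it, and 7315 genes were called in place of 7297. Deviations of same-numbered libraries correlated across genes at 0.0877, so the numbers were not taken to pair them. Among members not called, the sign turned under median-ratio scaling for Mafk (0.0101), Txnrd2 (0.11) and Glrx2 (0.11). With 1 library left out, differences ranged from -0.27 to 0.0061 for Mafk, -0.24 to 0.28 for Maff, -0.11 to 0.078 for Txnrd2, -0.29 to 0.40 for Glrx, -0.0596 to 0.0285 for Glrx2 and -0.13 to 0.41 for Glrx5. A lone library left in a group is assumed to vary like the other group. In limma-voom, Maff, Gpx8, Sod1 and Sod2 had no value because their reads were not recovered. Apart from Ggt1, members with recovered reads had at least 73 in every library, so depth limits few of them.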

Other observations

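Genes that serve selenoproteins and oxidized methionine, which draw on thioredoxin, changed in both directions. Sephs2, which makes the selenium donor for selenocysteine, was at 14.98 and 12.9 FPKM in controls and 33.8 and 32.1 FPKM in treated libraries, a 2.37-fold rise with a log2 difference of 1.19 ± 0.091 (adjusted p = 0.000444 in limma). Secisbp2, which binds selenoprotein messages for decoding, was lower by a difference of -0.42 ± 0.072 (adjusted p = 0.00529), and Sepsecs, the last enzyme of selenocysteine synthesis, was not called at 0.02. Of the methionine sulfoxide reductases, the selenoprotein gene Msrb1 rose 1.31-fold, and Msra, Msrb2 and Msrb3 were lower by differences of -0.68, -0.48 and -0.76. The calls of Msrb1, Msra and Msrb2 did not hold in every alternative. The copper chaperone of Sod1, Ccs, was at 47.4 and 44.3 FPKM in controls and 29.6 and 32.7 FPKM in treated libraries, lower by a difference of -0.54 ± 0.079 (adjusted p = 0.00301), while Sod1 itself was called higher.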
